A study of Mus musculus with 6 samples.

Results

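Enzymes that add or remove methyl groups on lysines, and enzymes that remove acetyl groups, were examined in BV2 cells with and without an shRNA against TonEBP, the osmotic stress factor encoded by Nfat5. The members were taken by symbol: every gene of the table whose name starts with Kdm, Kmt, Setd, Ezh, Hdac or Sirt followed by a digit. This gave 54 of the 21899 genes, namely 18 methyltransferases (writers: Ezh, Kmt and Setd), 18 lysine demethylases (erasers: Kdm) and 18 deacetylases (11 Hdac and 7 Sirt genes). Symbols do not prove activity: Kmt2e has no shown methyltransferase activity, the main substrates of Setd3 and Setd6 are not histones, and several sirtuins act in mitochondria.

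Histone lysine methylation marks chromatin according to its position. Methylation of H3K4 is found at promoters and enhancers, that of H3K36 over transcribed genes, and that of H3K9, H3K27 and H4K20 in silent or compacted chromatin. Writers place these groups using S-adenosylmethionine. Most Kdm enzymes remove them with a JmjC domain that needs iron, oxygen and 2-oxoglutarate, while Kdm1a and Kdm1b use flavin. Hdac enzymes use zinc and sirtuins use NAD to remove acetyl groups. In microglia and macrophages, H3K27 demethylases such as Kdm6b and class I deacetylases are known as regulators of inflammatory genes.

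BV2 is a cell line that was derived from mouse microglia. Poly(A) RNA was sequenced from 3 samples labelled as carrying a scrambled shRNA (sh-NC) and from 3 labelled as carrying an shRNA against NFAT5 (sh-TonEBP). Both groups received their shRNA by lentivirus and were selected with puromycin, no group of untouched cells was analysed here, and the labels give a single targeting shRNA, so an effect of that sequence on other transcripts cannot be told apart from that of TonEBP. Nothing in the sources tells if the libraries of 1 group were grown apart. The p-values therefore cover the differences among these 6 libraries alone, and those may be technical.

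The libraries held 13621188 to 16140042 counts. Levels are given in CPM, counts scaled to a common library size after TMM normalization. Of the genes, 11943 passed a filter on low counts and entered edgeR's quasi-likelihood test, with p-values adjusted by Benjamini-Hochberg. Nfat5 stood at 618, 772 and 617 CPM in the sh-NC libraries and at 244, 291 and 379 CPM in the sh-TonEBP libraries, so the groups did not overlap. It fell by 1.14 on the log2 scale (SE 0.16, adjusted p = 0.000159 from edgeR). The cell type label was checked on 16 markers of microglia, some of them shared by all myeloid cells or leukocytes, and 11 stood under 1 CPM in every library. P2ry12 and Siglech, which mark resting microglia, had no counts, and Ptprc, Spi1, Itgam, Aif1 and Tyrobp, which mark leukocytes or myeloid cells, had 0 to 3 counts per library. The label of microglia was thus not borne out by these markers, and the cells are called BV2 after their labels. Of 10 fibroblast markers, 6 of the 7 tested rose, and their summed level went from 472 to 514 CPM in sh-NC to 1568 to 1727 CPM in sh-TonEBP. The summed level of 8 epithelial markers, 6 of them under 1 CPM in every library, went from 618 to 752 CPM to 1209 to 1519 CPM, and that of the microglial markers from 48.1 to 57.4 CPM to 68.9 to 86.4 CPM. Their part in the results below was not tested, and in bulk RNA fewer cells of a type and less RNA per cell cannot be told apart.

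Across the members, falls were more numerous than rises. Of the 54 genes, 53 were tested, and Hdac9, a class IIa deacetylase with 4 to 11 counts per library, was not. At an adjusted p under 0.05, 25 of the 53 changed, 5 upwards and 20 downwards. That is 47.2% of the members tested, where 52.5% of all genes tested changed. By direction, 9.43% of the members rose, against 26.3% of all genes, and 37.7% fell, against 26.2%. The median log2 fold change was -0.28 over the members and 0.0007 over all tested genes. Separate ranges in the groups were found for 29 of the 53 members (54.7%), against 62.7% of all genes, 8 of them higher and 21 lower in sh-TonEBP. Falls of more than 2-fold were seen in Kdm6a and Kdm7a and rises of that size in 0 members, where 8.29% and 6.25% of all genes passed the same limits. When trends of the counts on transcript length and GC content were fitted in each library, 10 members rose and 21 fell, where 29.0% and 23.2% of all genes did.

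The 3 classes had different counts. Of all genes tested, 26.3% rose and 26.2% fell. Among the 18 writers, 2 rose (11.1%) and 10 fell (55.6%), with a median log2 fold change of -0.48. Among the 18 erasers 9 fell by edgeR (50.0%) and 0 rose, with a median of -0.31 (4 rose and 8 fell once length and GC trends were fitted). At an unadjusted p under 0.05, 1 eraser was higher, a limit at which all genes were not counted, and DESeq2 called 0 higher. Of the 17 deacetylases tested, 3 rose (17.6%) and 1 fell (5.88%), with a median of -0.09, a balance that turned to 2 rises and 5 falls with those trends. The difference between the classes was not tested. Transcript lengths also differed, with a median of 6621 bases for the writers, 5557.5 for the erasers and 3206 for the deacetylases, beside 3432 for all genes tested. In the fit with length and GC trends 4 writers rose and 8 fell, the erasers that rose were Kdm1b, Kdm2a, Kdm5a and Kdm5b, and the medians of the classes were -0.18, -0.12 and 0.02, beside 0.05 over all genes. The summed CPM of a class, in which long transcripts weigh more, went from between 2163 and 2271 to between 1583 and 1757 for the writers and from between 1804 and 1920 to between 1466 and 1504 for the erasers. For the deacetylases the sums overlapped, at 1140 to 1256 in sh-NC and 1160 to 1283 in sh-TonEBP.

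**Figure D1:**
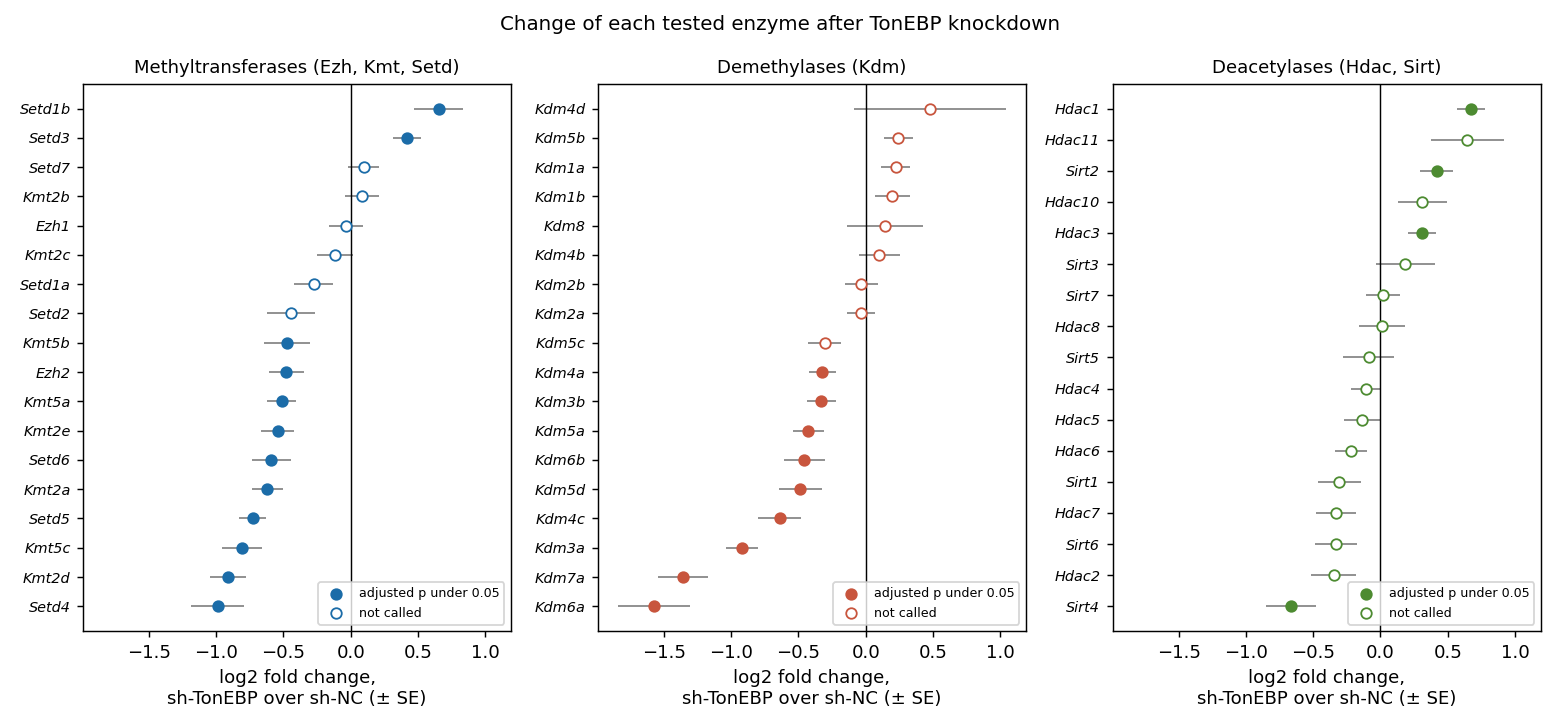
Log2 fold change of sh-TonEBP over sh-NC (x axis, bars ± SE from edgeR) for the 53 members tested, by class, with filled points for an adjusted p under 0.05. Filled points lie left of 0 for 10 writers and 9 erasers and right of 0 for 3 of 4 called deacetylases, whereas with length and GC trends 4 erasers rose and 8 fell and 2 deacetylases rose and 5 fell.

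Among the writers of H3K4 methylation, which include the large Kmt2 proteins of the COMPASS complexes, 1 of 7 rose (14.3%) and 2 fell (28.6%). Those shares were 26.3% and 26.2% over all genes tested. With length and GC trends fitted 3 rose and 2 fell, where 29.0% and 23.2% of all genes did. Kmt2d, which methylates H3K4 at enhancers, stood at 369, 353 and 381 CPM in sh-NC and at 224, 159 and 203 CPM in sh-TonEBP. It had the highest read level of the members in sh-NC, and its lowest sh-NC library lay above all sh-TonEBP libraries. It fell by 0.91 on the log2 scale (SE 0.13, adjusted p = 0.000169 from edgeR). Kmt2a, the MLL1 protein that maintains Hox gene expression, went from 249, 296 and 260 CPM to 173, 160.0 and 191 CPM, also without overlap, and fell by 0.62 (adjusted p = 0.00093). With length and GC trends its log2 fold change was -0.15 and the call was lost (adjusted p = 0.13). Their paralogs gave other values: Kmt2c, the enhancer partner of Kmt2d, had a log2 fold change of -0.12 (adjusted p = 0.466) and Kmt2b one of 0.08 (adjusted p = 0.592), with overlapping groups for both. With those trends Kmt2c was called higher (0.46, adjusted p = 0.000459).

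The Setd1 proteins, which place most H3K4 trimethylation, also differed from each other. Setd1b stood at 12.1, 10.5 and 11.7 CPM in sh-NC and at 22.4, 14.7 and 16.6 CPM in sh-TonEBP. All its sh-TonEBP libraries were higher, and it rose by a log2 fold change of 0.65 (SE 0.18, adjusted p = 0.00895 from edgeR). Setd1a had a log2 fold change of -0.28 with overlapping groups (adjusted p = 0.12). It passed without sh-TonEBP library 1 (-0.40, adjusted p = 0.0303) and with length and GC trends (-0.36, adjusted p = 0.0123). Setd1a shares 3523 annotated exon bases with another gene model on its strand. Setd7, which places a single methyl group on H3K4 and on other proteins, stood at a log2 fold change of 0.09 (adjusted p = 0.51). With length and GC trends Setd7 was called higher (0.41, adjusted p = 0.00387). Kmt2e, a Kmt2 relative that reads H3K4 methylation, went from 135, 135 and 131 CPM to 76.7, 96.0 and 103 CPM. It fell by 0.54 (adjusted p = 0.00307), but with length and GC trends the value was -0.15 (adjusted p = 0.175), and 972 of its exon bases overlap Srpk2 on the other strand.

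Ezh2, the catalytic subunit of Polycomb repressive complex PRC2 in dividing cells, went from 102, 126 and 107 CPM to 69.8, 86.8 and 84.2 CPM. It fell by 0.48 on the log2 scale without overlap (SE 0.13, adjusted p = 0.00776 from edgeR). Ezh1, the subunit that replaces it in resting cells, stood at 70.3, 86.9 and 82.0 CPM in sh-NC and at 87.0, 76.0 and 70.6 CPM in sh-TonEBP. These ranges overlap nearly whole, with a log2 fold change of -0.03 (adjusted p = 0.829). Setd2, which places H3K36 trimethylation, had a log2 fold change of -0.44 (adjusted p = 0.058). Its sh-TonEBP library 3, at 167 CPM, reached the sh-NC range of 167 to 201 CPM, while the other sh-TonEBP libraries stood at 94.3 and 133 CPM. Without that library the log2 fold change was -0.65 and passed the test (adjusted p = 0.0066), and Setd2 was also called lower by DESeq2 (adjusted p = 0.0315) and with no filter on low counts (0.0359). Fitting length and GC trends gave 0.07 (adjusted p = 0.61).

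All 3 writers of H4K20 methylation fell, where 26.2% of all genes tested did, and 2 of them were called lower with length and GC trends. Kmt5c, which places H4K20 trimethylation in heterochromatin, went from 53.8, 43.7 and 63.0 CPM to 33.8, 29.0 and 29.0 CPM, a fall without overlap. Its log2 fold change was -0.81 (SE 0.15, adjusted p = 0.000806 from edgeR). Kmt5a, which places the first methyl group and is required for cell division, fell by 0.51 (adjusted p = 0.00203). Kmt5b, a paralog of Kmt5c, fell by 0.48 (adjusted p = 0.0316) and was the only called member whose groups overlapped, at 27.7 to 32.9 CPM in sh-NC and 18.7 to 27.8 CPM in sh-TonEBP. Its call was lost without sh-NC library 1 (adjusted p = 0.0918), without sh-NC library 3 (0.0738), without sh-TonEBP library 1 (0.0889), without sh-TonEBP library 2 (0.127) and with length and GC trends (0.245).

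The other Setd genes moved in both directions. Setd4, whose main substrate is less settled, was low, at 9.04, 7.56 and 8.76 CPM in sh-NC and at 3.70, 4.15 and 4.97 CPM in sh-TonEBP. It fell by 0.99 on the log2 scale (SE 0.20, adjusted p = 0.00135 from edgeR), the deepest fall among the writers. Setd5, a chromatin protein with an uncertain enzymatic role, went from 270, 268 and 262 CPM to 165, 154 and 164 CPM, with replicates close together, and fell by 0.73 (adjusted p = 0.000134). Setd6, which methylates the NF-kappaB subunit RelA, went from 26.0, 23.7 and 25.1 CPM to 14.4, 18.7 and 16.6 CPM and fell by 0.59 (adjusted p = 0.00463). In contrast, Setd3, the histidine methyltransferase of actin, went from 111, 118 and 114 CPM to 164, 151 and 143 CPM and rose by 0.42 (adjusted p = 0.00586). For each of these genes the groups did not overlap.

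Among the erasers, both H3K27 demethylases of the Kdm6 pair fell, where 26.2% of all genes tested did, with Kdm6a by the larger value. Kdm6a, also called UTX and encoded on the X chromosome, stood at 21.6, 30.2 and 23.6 CPM in sh-NC and at 5.14, 7.92 and 12.4 CPM in sh-TonEBP. The groups lay well apart, and its log2 fold change of -1.57 was the lowest of all members in this fit (SE 0.27, adjusted p = 0.000839 from edgeR). With length and GC trends the value of Kdm6a was -1.12, and those of Setd4 (-1.16) and Kmt5c (-1.14) were lower. Kdm6b, known as JMJD3 and induced in inflammatory macrophages, went from 122, 115 and 128 CPM to 106, 92.8 and 67.4 CPM and fell by 0.45 (SE 0.15, adjusted p = 0.0224). The spread in sh-TonEBP was wide, and the call was lost without sh-TonEBP library 3 (log2 fold change -0.29, adjusted p = 0.0736) and without sh-NC library 3 (-0.42, adjusted p = 0.078). Kdm6bos, a gene on the other strand, overlaps 286 of its exon bases. Uty, the Y-linked relative of Kdm6a, went from 18.2 to 8.53 CPM on average and fell by 1.09 (adjusted p = 0.00053). Kdm6a and Uty have similar sequences, and how reads with several matches were counted is not given, so their split is uncertain.

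Kdm7a, a PHD and JmjC domain protein that removes H3K9 and H3K27 dimethylation, went from 143, 174 and 139 CPM to 41.1, 69.4 and 68.0 CPM. All sh-TonEBP libraries were below the sh-NC range, and it fell by 1.36 (SE 0.19, adjusted p = 0.000184 from edgeR). Kdm3a, the H3K9 demethylase also known as JMJD1A, went from 284, 294 and 276 CPM to 133, 148 and 171 CPM. It fell by 0.92 (SE 0.12, adjusted p = 7.76e-05), the smallest adjusted p of the members. Per kilobase of its longest transcript, Kdm3a had the highest level of the erasers in sh-NC (58.6 CPM per kb) and went to 31 CPM per kb. Its paralog Kdm3b fell by 0.33 (adjusted p = 0.0226), a call that was lost without sh-NC library 2 (adjusted p = 0.066), sh-NC library 3 (0.0956), sh-TonEBP library 2 (0.0882) or sh-TonEBP library 3 (0.0616).

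The Kdm4 genes encode demethylases of H3K9 and H3K36. Kdm4c went from 36.1, 43.1 and 36.3 CPM to 19.2, 28.9 and 26.1 CPM, without overlap, and fell by 0.64 (SE 0.16, adjusted p = 0.00554 from edgeR). Kdm4a fell by 0.32 (adjusted p = 0.0172), which was lost without sh-NC library 3 (0.0856) or sh-TonEBP library 2 (0.0653). Kdm4b had a log2 fold change of 0.10 (adjusted p = 0.587), and Kdm4d was detected at 0.199 to 1.32 CPM. Kdm2a and Kdm2b, the H3K36 demethylases with a CpG-binding domain, had log2 fold changes of -0.03 each (adjusted p = 0.792 and 0.828), with all sh-TonEBP libraries inside the sh-NC range. With length and GC trends Kdm2a was called higher (0.31, adjusted p = 0.00646). Kdm8, a JmjC protein whose activity is debated, was low, at 2.58 to 4.28 CPM, and did not pass (adjusted p = 0.685).

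Of the 6 H3K4 demethylases, 2 fell (33.3%) and 4 did not pass the test, where 26.2% of all genes tested fell. With length and GC trends fitted 3 rose and 1 fell, where 29.0% and 23.2% of all genes did. Kdm5a fell by 0.43 (adjusted p = 0.00787 from edgeR), but with length and GC trends it was called higher, with a log2 fold change of 0.25 (adjusted p = 0.0242), and 251 of its exon bases overlap Ccdc77. Kdm5b, which is abundant in proliferating cells, had 0.24 (adjusted p = 0.0732), with sh-TonEBP libraries at 120.4 to 135 CPM, all above the sh-NC range of 102 to 114 CPM. Kdm5b rose in the length and GC fit by 0.63 (adjusted p = 4.12e-05). The X-linked Kdm5c had -0.30 (adjusted p = 0.0543) and passed without sh-TonEBP library 1 (-0.42, adjusted p = 0.00722) and with length and GC trends (-0.28, adjusted p = 0.0218). The Y-linked Kdm5d fell by 0.49 (adjusted p = 0.0216), a call lost without sh-NC library 2 (0.079) or sh-TonEBP library 1 (0.066), while the length and GC fit gave 0.04 (adjusted p = 0.781). Kdm5c and Kdm5d can share reads. Of the flavin-dependent enzymes, Kdm1a, the LSD1 subunit of the CoREST complex, had 0.22 (adjusted p = 0.094) and no overlap, and Kdm1b had 0.20 (adjusted p = 0.212), or 0.54 with those trends (adjusted p = 0.000412).

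**Figure D2:**
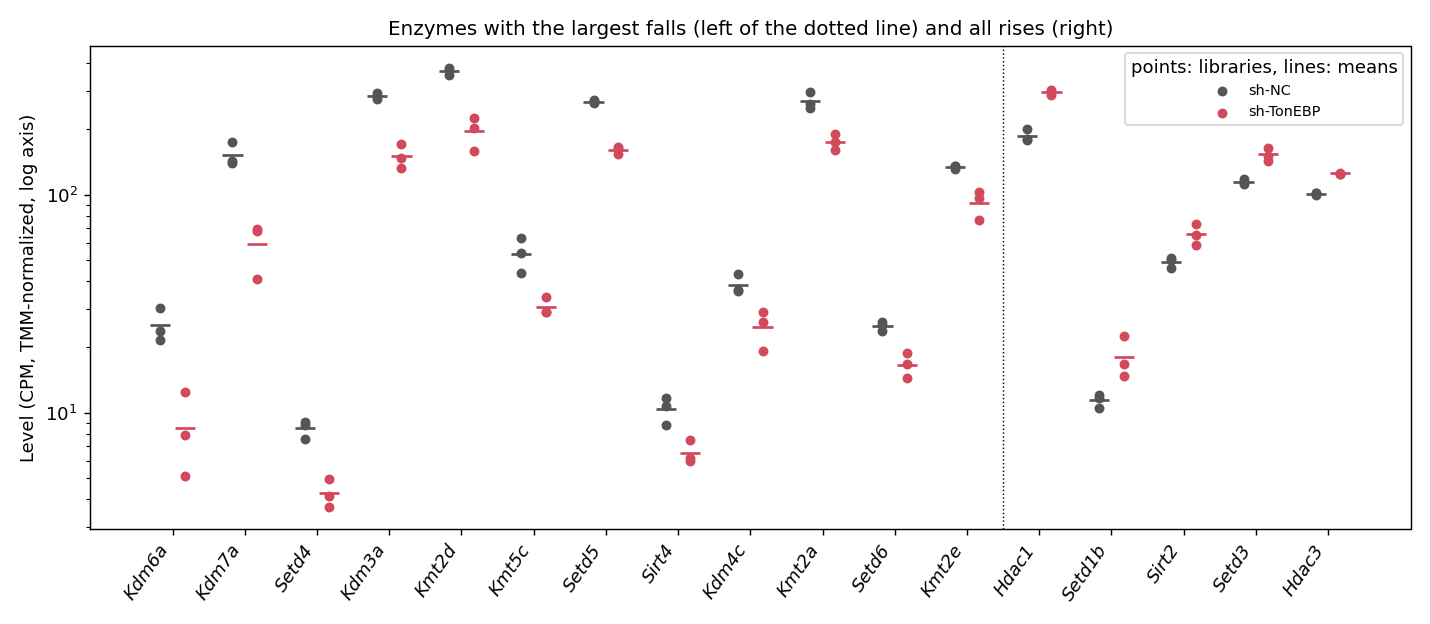
Level of 17 called members in each library (y axis, TMM-normalized CPM, log scale), with points for the 3 sh-NC and 3 sh-TonEBP libraries and lines for their means. The 12 genes left of the dotted line are the largest called falls, and the 5 on the right are the called rises, and the groups do not overlap in any of them.

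TonEBP binds an element, TonE, whose core is TGGAAA. RefSeq promoters on GRCm38.p6, taken from 250 bases before to 50 after each annotated start, were matched by symbol for 43 of the 54 members, which have 59 such promoters. On either strand, TGGAAA was found in 10 of these (16.95%) and in 21.4% of all 32851 promoters, and the full TonE element, which contains the core, in 2 (3.39%) against 4.96%. A further motif, ACGTG, the core bound by hypoxia-inducible factors, was found in 13 (22.03%) against 19.6%. The promoters of 3 lowered members, which are not the 3 with the deepest falls, are shown with the motif in capitals. Kdm7a and Setd4 fell by more than Kdm3a and Kmt2d, and TGGAAA was not found in their promoters. Kdm6a (chrX:18162325-18162624, plus strand) holds no TGGAAA in this window. Of 3 annotated promoters of Kdm3a, that at an internal start (chr6:71609090-71609389, minus strand) holds TonE at position -195 from the start, and it lacks CpG dinucleotides, while the others hold 24 and 40 CpG and no TonE. Kmt2d (chr15:98871156-98871455, minus strand) holds the core TGGAAA at position -53. A match is a run of letters and not a binding site, and whether the internal Kdm3a start is used in these cells was not tested.
Kdm6a: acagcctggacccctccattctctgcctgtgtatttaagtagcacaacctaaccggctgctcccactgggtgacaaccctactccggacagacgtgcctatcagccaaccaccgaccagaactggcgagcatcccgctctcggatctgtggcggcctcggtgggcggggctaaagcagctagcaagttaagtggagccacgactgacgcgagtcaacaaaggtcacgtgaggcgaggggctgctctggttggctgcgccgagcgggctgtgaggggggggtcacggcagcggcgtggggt
Kdm3a, internal start: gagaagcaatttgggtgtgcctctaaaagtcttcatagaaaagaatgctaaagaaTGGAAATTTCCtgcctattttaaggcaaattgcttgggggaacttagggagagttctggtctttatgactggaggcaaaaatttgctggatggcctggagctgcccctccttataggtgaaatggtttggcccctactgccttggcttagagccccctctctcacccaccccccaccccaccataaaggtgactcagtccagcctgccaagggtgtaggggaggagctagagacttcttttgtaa
Kmt2d: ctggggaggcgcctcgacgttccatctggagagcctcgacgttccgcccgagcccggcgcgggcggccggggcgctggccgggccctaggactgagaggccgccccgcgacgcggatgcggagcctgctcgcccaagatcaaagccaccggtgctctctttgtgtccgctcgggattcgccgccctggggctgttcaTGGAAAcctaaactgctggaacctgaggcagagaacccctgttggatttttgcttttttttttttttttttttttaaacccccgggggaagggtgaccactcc

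Among the deacetylases, the class I enzymes Hdac1 and Hdac3 rose and Hdac2 did not. Hdac1, a catalytic subunit of the Sin3, NuRD and CoREST complexes, stood at 199, 180.2 and 177 CPM in sh-NC and at 285, 298 and 303 CPM in sh-TonEBP. Replicates were close and the groups lay apart, and it rose by a log2 fold change of 0.67 (SE 0.11, adjusted p = 0.000295 from edgeR). It also had the highest level per kilobase of all members, at 91.0 CPM per kb in sh-NC and 145 CPM per kb in sh-TonEBP. Hdac2, its close paralog in the same complexes, stood at 120.1, 149 and 129 CPM in sh-NC and at 75.7, 122 and 114 CPM in sh-TonEBP. The groups overlapped through sh-TonEBP library 2, and the log2 fold change was -0.35 (adjusted p = 0.0944).

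Hdac3, the enzyme of the NCoR and SMRT co-repressor complexes, went from 102, 101 and 99.7 CPM to 126, 125 and 125 CPM. The replicates differed by little, and it rose by 0.31 (SE 0.10, adjusted p = 0.0213 from edgeR), a call lost without sh-NC library 1 (adjusted p = 0.0636), sh-NC library 3 (0.0981) or sh-TonEBP library 2 (0.0536). Hdac8, the fourth class I gene, had a log2 fold change of 0.01 (adjusted p = 0.96). The class IIa genes, whose products shuttle between nucleus and cytoplasm, did not pass the test, with log2 fold changes of -0.33 for Hdac7 (adjusted p = 0.0759), -0.13 for Hdac5 (0.413) and -0.11 for Hdac4 (0.423). The class IIb genes did not pass either: Hdac6, the tubulin deacetylase, had -0.22 (adjusted p = 0.142) and Hdac10, a polyamine deacetylase, 0.31 (0.17). Without sh-TonEBP library 1, Hdac7 (-0.51, adjusted p = 0.00517) and Hdac6 (-0.30, adjusted p = 0.0499) passed. With length and GC trends Hdac7 (-0.54, adjusted p = 0.000236), Hdac5 (-0.32, 0.0072) and Hdac6 (-0.26, 0.0323) were called lower. Hdac11, the class IV enzyme, was low, at 1.72 to 2.81 CPM in sh-NC and 2.96 to 4.01 CPM in sh-TonEBP, and its log2 fold change of 0.65 did not pass (SE 0.27, adjusted p = 0.062).

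Of the 7 sirtuins, 1 rose and 1 fell (14.3% each), against 26.3% and 26.2% of all genes tested. With length and GC trends 0 rose and 2 fell, against 29.0% and 23.2% of all genes. Sirt2, a mainly cytoplasmic enzyme, went from 51.3, 46.1 and 50.0 CPM to 73.3, 65.2 and 58.5 CPM, without overlap, and rose by 0.42 (SE 0.12, adjusted p = 0.0119 from edgeR). With length and GC trends its value was 0.15 and the call was lost (adjusted p = 0.171), and 42 of its exon bases overlap Nfkbib. Sirt4, a mitochondrial sirtuin, went from 11.6, 8.75 and 10.7 CPM to 7.46, 5.97 and 6.19 CPM and fell by 0.66 (SE 0.19, adjusted p = 0.00993). The nuclear sirtuins Sirt1 and Sirt6 had log2 fold changes of -0.31 (adjusted p = 0.122) and -0.33 (0.0912), and Sirt7 had 0.02 (0.906). Sirt6 passed without sh-NC library 2 (-0.47, adjusted p = 0.0184) and with length and GC trends (-0.69, adjusted p = 0.000108). The mitochondrial Sirt3 and Sirt5 did not pass, with 0.19 (adjusted p = 0.49) and -0.09 (0.717).

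Since paralogs often share a complex or a substrate, their ratio was taken within each library, where the scaling of libraries cancels apart from a pseudocount of 0.5 CPM. In 8 of 14 pairs the ratios of the groups did not overlap. The levels of single genes did not overlap for 62.7% of those tested, but that is another measure, and ratios of other gene pairs were not taken. The exact two-sided permutation test of 3 against 3 cannot go below p = 0.10, which these 8 pairs reached (0.175 after Benjamini-Hochberg adjustment over the 14), so no ratio passed at 0.05. The Hdac1 to Hdac2 ratio was 1.21 to 1.65 in sh-NC and 2.44 to 3.75 in sh-TonEBP, a shift of 1.04 on the log2 scale. The Setd1a to Setd1b ratio went from 2.56 to 2.90 down to 1.36 to 1.64, and that of Kmt2a to Kmt2b from 4.16 to 5.45 down to 2.59 to 3.08. In the first of these pairs Setd1b rose, and in the second Kmt2a fell, while their partners did not pass the test. The Kmt2c to Kmt2d ratio went from 0.411 to 0.529 up to 0.634 to 0.898.

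For Ezh1 to Ezh2, the ratio was 0.689 to 0.765 in sh-NC and 0.839 to 1.24 in sh-TonEBP. Kdm5a to Kdm5b went from 1.08 to 1.17 down to 0.603 to 0.785, and Kdm3a to Kdm3b from 1.96 to 2.21 down to 1.13 to 1.62. The Hdac6 to Hdac10 ratio likewise did not overlap, at 4.07 to 4.86 and 2.42 to 3.78. Kdm6a to Kdm6b had the lowest mean shift, -1.10 on the log2 scale, but overlapped, since both genes were lower and sh-TonEBP library 3 had the highest Kdm6a and the lowest Kdm6b of its group (exact p = 0.30, n = 3 per group). The pairs Kdm1a and Kdm1b, Kdm2a and Kdm2b, and Hdac4 and Hdac5 shifted by 0.03, -0.0021 and 0.04 on the log2 scale, with overlapping groups. A ratio does not cancel length or GC content. The difference of the log2 fold changes with those trends was 0.58 for Hdac1 and Hdac2, -0.23 for Kmt2a and Kmt2b, 0.20 for Ezh1 and Ezh2, -0.38 for Kdm5a and Kdm5b, -0.33 for Kdm3a and Kdm3b, and -0.30 for Hdac6 and Hdac10. For Setd1a and Setd1b it was -1.01 and for Kmt2c and Kmt2d 1.09, and none of the 8 pairs changed direction.

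**Figure D3:**
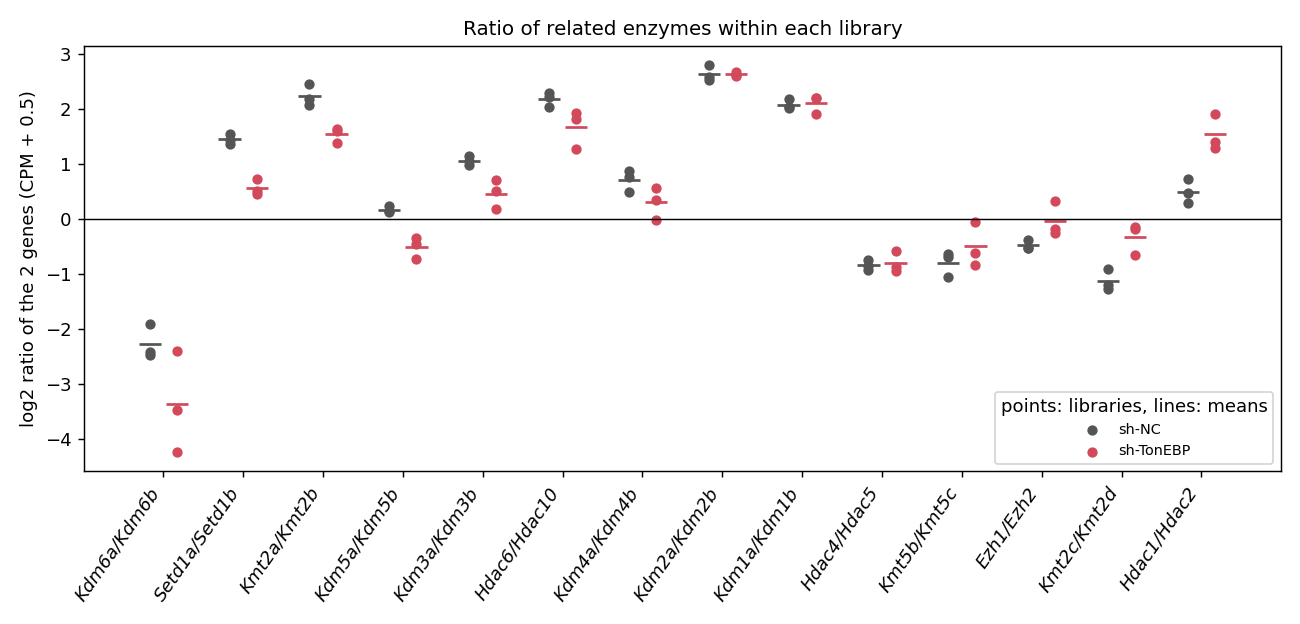
Log2 ratio of related enzymes within each library (y axis, CPM + 0.5) for 14 pairs, with points for the 3 sh-NC and 3 sh-TonEBP libraries and lines for their means. The groups do not overlap in 8 pairs, with Hdac1/Hdac2 moving up by 1.04 and Setd1a/Setd1b down by 0.89.

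Transcript length and base composition moved with the fold changes of the whole table. Across 11929 genes, the Spearman correlation of the log2 fold change was -0.31 with length and 0.42 with GC content, and across the 53 members it was -0.20 and 0.20. Genes share libraries and are not independent. In the fit with these trends, 15 of the 20 falls remained called lower and 4 of the 5 rises remained called higher. Kmt2a, Kmt2e, Kmt5b, Kdm5d and Sirt2 had no call there, Kdm5a had the opposite one, and 6 further members were lower and 5 higher. Hdac5, Hdac6, Hdac7, Sirt6, Kdm5c and Setd1a were called lower there, and Kmt2c, Kdm1b, Kdm2a, Kdm5b and Setd7 were called higher. Nfat5, a long transcript of 13443 bases at 42.8% GC, went from a log2 fold change of -1.14 to -0.37 (adjusted p = 0.00325) in the same fit, so the fit also reduced the change of the targeted gene itself. Kdm7a, of 9566 bases and 39.6% GC, went from -1.36 to -0.61, and Kdm6a from -1.57 to -1.12. For Kmt5c, of 2774 bases and 60.0% GC, the value went from -0.81 to -1.14. Which of the fits is nearer to the cells was not tested.

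**Figure D4:**
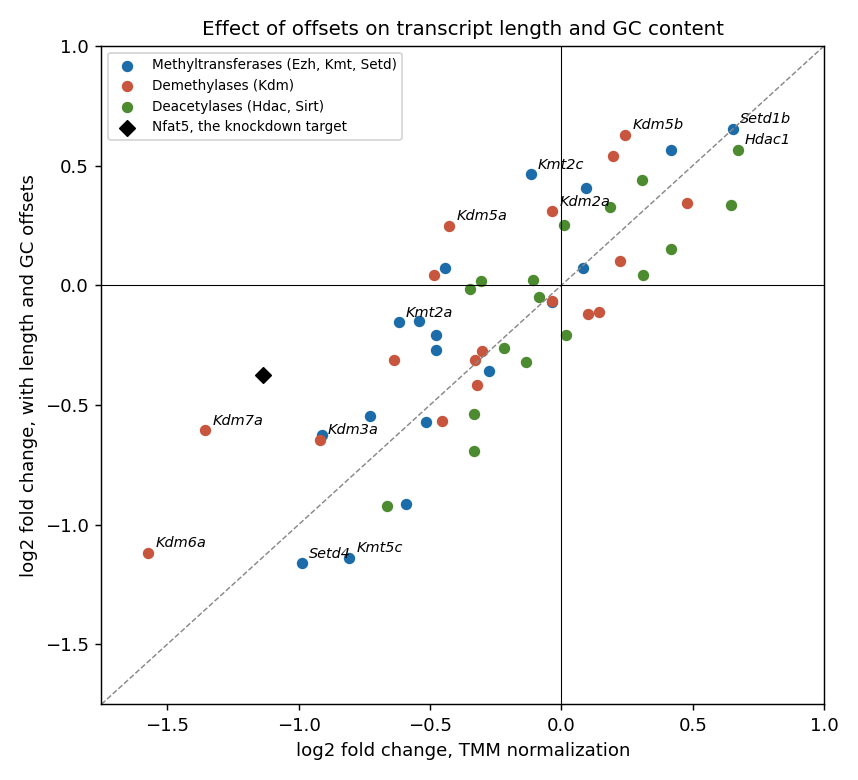
Log2 fold change of each tested member without (x axis) and with (y axis) length and GC trends, coloured by class, with Nfat5 as a diamond and the line of equal values dashed. Kdm5a moves from -0.43 to 0.25 and Kmt2c from -0.12 to 0.46, Nfat5 from -1.14 to -0.37, and Hdac1 and Setd1b stay near the line.

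The calls were then read together with the loss of single libraries. Of the 25 called members, 19 kept the call in all 6 fits that left out a library. No call was lost with DESeq2, RLE factors, library totals or the other filters. In the fits without a library and with the length and GC trends alike, 15 kept it: the rises of Hdac1, Setd1b and Setd3 and the falls of Kdm3a, Kdm4c, Kdm6a, Kdm7a, Ezh2, Kmt2d, Kmt5a, Kmt5c, Setd4, Setd5, Setd6 and Sirt4. By the marks these enzymes are known for, the 12 falls include demethylases of H3K9, H3K27 and H3K36 and methyltransferases of H3K4, H3K27 and H4K20, and Ezh2 and Kdm6a, a writer and an eraser of H3K27 methylation, are both among them. How many of all genes tested keep a call in these fits was not counted. Whether 19 or 15 members are more or fewer than usual is thus not known.

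Genes outside the symbol rule that are related by reaction or only by protein domain were counted as well. Of 16 other lysine methyltransferases tested, 2 rose (12.5%) and 7 fell (43.8%), against 26.3% and 26.2% of all genes tested, with a median log2 fold change of -0.23. With length and GC trends 2 rose and 2 fell. Dot1l, the H3K79 methyltransferase, fell by 0.69 (adjusted p = 0.000428 from edgeR), and the H3K36 methyltransferases Nsd3 and Nsd2 fell by 0.65 (0.0005) and 0.44 (0.00597), calls that were lost with those trends (-0.17, adjusted p = 0.0809, and 0.20, adjusted p = 0.123). Among 9 other JmjC proteins, 1 rose (11.1%) and 6 fell (66.7%), with a median of -0.34, and with the trends 1 rose and 4 fell. The fall of Jmjd1c, the third relative of Kdm3a and Kdm3b, from 258 to 100.3 CPM on average was the steepest there (-1.36, adjusted p = 4.74e-05). Jmjd6 fell by 0.37 (adjusted p = 0.0112). Both lists hold long transcripts, with medians of 5802.5 and 5494 bases, and with length and GC trends their medians were 0.05 and -0.24.

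The counts among partners of the members are to be read beside the 26.3% of all genes tested that rose and the 26.2% that fell. Of 9 PRC2 partners of Ezh2, 1 rose (11.1%) and 3 fell (33.3%, median -0.13), with falls of the core subunit Suz12 by 0.74 (adjusted p = 0.00971 from edgeR) and of Jarid2 by 0.70 (0.000966) and a rise of Rbbp4, a histone binder shared with Hdac1 complexes, by 0.55 (0.00117). Of 13 COMPASS partners of the Kmt2 and Setd1 proteins, 3 rose (23.1%) and 4 fell (30.8%, median -0.04). Wdr82, a subunit of Setd1 complexes, rose by 0.79 (adjusted p = 0.000196) and the core subunit Dpy30 by 0.66 (0.00281), and Bod1l, which binds Setd1a, fell by 0.82 (0.0016), a call lost with length and GC trends (-0.26, adjusted p = 0.052). Of 27 co-repressor partners of the Hdac proteins, 9 rose (33.3%) and 5 fell (18.5%, median 0.06), shares near those of all genes. Chd4, the NuRD remodeller, went from 492 to 755 CPM on average and rose by 0.62 (adjusted p = 0.000846), Sin3b rose by 0.58 (0.00155) and Gatad2a, a NuRD subunit, by 0.55 (0.0016). With the trends, 2 PRC2 partners rose and 2 fell, 4 COMPASS partners rose and 2 fell, and 7 co-repressor partners rose and 6 fell.

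The opposing and supplying enzymes gave these counts. Among 12 histone acetyltransferases, 1 rose and 1 fell (8.33% each, median -0.20), against 26.3% and 26.2% of all genes tested. Naa40, which acetylates histone amino termini, rose by 0.42, Ep300 fell by 0.40, and Crebbp had -0.30 and did not pass. With length and GC trends the call of Ep300 was lost (-0.14, adjusted p = 0.237), and 1 of the list rose and 3 fell. Of 9 arginine methyltransferases, 2 rose and 2 fell (22.2% each, median 0.04), or 3 and 2 with the trends, with rises of Prmt2 by 0.97 and Prmt1 by 0.73 and a fall of Prmt6 by 0.70. Of 13 enzymes that make or use the cofactors, 2 rose and 2 fell (15.4% each, median -0.08), or 4 and 4 with the trends. Nampt, the rate-limiting enzyme of NAD salvage on which sirtuins depend, went from 335 to 173 CPM on average and fell by 0.95 (adjusted p = 0.000179 from edgeR). Idh1, which makes 2-oxoglutarate, rose by 0.61, and Nmnat2, which joins NMN into NAD, fell from 15 to 33 counts per library to 0 to 4, too few for an exact fold. Of 15 proliferation genes 4 rose (26.7%) and 3 fell (20%, median 0.06), or 6 and 2 with the trends, with Mcm5 up by 1.06, Mcm2 up by 0.57 and Bub1 down by 0.86.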

How the data were processed

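Poly(A) RNA of 3 sh-NC and 3 sh-TonEBP libraries of BV2 cells was sequenced by the authors, who deposited raw read counts per gene. Tools listed in the submitters' processing notes are HISAT2 2.0.5, HTSeq 0.9.1, cutadapt 1.15 and DESeq 1.30.0, with the build GRCm39. The authors tested these counts with DESeq2. Whether counting used strand, and what was done with reads matching several places, is not given in the sources used here. Knockdown columns carry no gene name, and were assigned as the only other shRNA of the series. Of 21899 gene identifiers, 21795 matched a symbol, and the others held 0.057% to 0.0788% of counts per library. Libraries held 13621188 to 16140042 counts, and replicates differed by more than sampling noise (chi-square per degree of freedom of 5.33 or more).

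edgeR 4.0.16 in R 4.3.3 (filterByExpr, TMM, robust quasi-likelihood test, group as the only term) tested 11943 genes, with a common biological coefficient of variation of 0.135, and adjusted p over all of them. Only the edgeR fit was tested on simulated counts, with known fold changes and without length or GC trends. The fit with those trends and the ratio test were not simulated. Lengths and GC content came from the longest transcript of GENCODE M21, an older annotation, and their trends were fitted with mgcv 1.9.3. Ratios used Python 3.11.15 and scipy 1.17.1. Alternatives were DESeq2 1.42.0, RLE factors, library totals, a mean of at least 1 CPM, no filter, a replicate block, leaving out each library, length and GC offsets, a second pseudocount of 2 CPM, an adjusted p under 0.01, and the study's limits of a 2-fold change with an unadjusted p under 0.05. Values in every library are given for up to 12 called members in each direction with a mean of at least 2 CPM, by size of change, and for the pairs Ezh1 and Ezh2, Kdm6a and Kdm6b, and Hdac1 and Hdac2. Related lists name up to 3 genes with the smallest p, and other genes are named after their values were seen. Members, lists, pairs and tests were chosen with earlier results of these data known. For Nfat5, the alternatives other than DESeq2, and for the ratios the length and GC offsets, were added after seeing the data.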

Additional observations from a re-analysis of the deposited data

How the results depend on the processing

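Nfat5 was lower and passed the test in every alternative run. The members gave 20 to 24 falls and 5 rises over DESeq2, RLE factors, library totals, a mean of at least 1 CPM, no filter and the replicate block. In the same runs, 3073 to 3289 of all genes fell and 3076 to 3241 rose, among 11467 to 16284 genes fitted. Leaving out a library gave 16 to 22 falls and 4 to 5 rises, where 2578 to 3132 of all genes fell and 2488 to 3083 rose, of 12103 to 12156 tested. At an adjusted p under 0.01, 3 members rose and 15 fell, and at the study's limits 0 rose and 2 fell. Shares over all genes at these limits were not counted here. With length and GC offsets 10 rose and 21 fell, the median log2 fold change was -0.18 for the writers and -0.12 for the erasers, and 10 members changed sign, 4 of them with a call in either fit: Kdm5a (0.25), Kmt2c (0.46), Kdm2a (0.31) and Kdm5d (0.043). The cause was not tested. Without a library the median of the writers ranged from -0.55 to -0.39, and the log2 fold change of Nfat5 from -1.32 to -0.997. Low levels limit Kdm4d, Kdm8 and Hdac11, whose SE were 0.27 to 0.56.

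With the replicate number as a block, 5 members rose and 24 fell, with Hdac2, Hdac7, Kdm5c and Setd2 (-0.48, adjusted p = 0.013 from edgeR) added to the falls. Of all 11943 genes in that fit, 3147 rose and 3289 fell. Deviations of same-numbered libraries correlated at 0.18, 0.056 and -0.072, and not every library correlated best with its own number, so the numbers were not taken to pair the samples. The paralog ratios kept their direction and exact p with a pseudocount of 2 CPM.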
